A study of Mus musculus with 23 samples.

Results

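The genes of the vesicle fusion machinery were read out in primary hippocampal neurons with and without Nedd8, and comprise the SNARE genes Snap25, Stx1a, Vamp1 and Vamp2, the complexin genes Cplx1, Cplx2 and Cplx3, and Nsf. These 8 genes were taken by Ensembl identifier from the 56941 genes of the count tables. All neurons came from newborn homozygous NEDD8cKO mice, in which loxP sites lie before the second and after the third exon of Nedd8, so that both groups carried the same floxed alleles. The RFP group received on the first day in vitro a lentivirus that expressed red fluorescent protein from the Synapsin1 promoter, and the CRE group one that expressed CRE recombinase tagged with RFP from the same neuronal promoter, so that glia and uninfected cells in the dish were not targeted. RNA was taken at 12 days in vitro according to the labels, and at a later day according to the methods. There were 12 CRE and 11 RFP libraries, of which 11 and 10 entered the main comparison. The labels do not say which libraries came from separate cultures or animals, and the study's supplement counts fewer biological replicates than libraries, so that some libraries share a culture or animals. As a measure of the spread between cultures, p-values over libraries are therefore too small.

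Synaptic vesicles fuse when VAMP2 (synaptobrevin-2) on the vesicle zippers with syntaxin-1 and SNAP-25 on the plasma membrane into a SNARE bundle. Complexins bind the assembled bundle and both hold it back and promote its release on calcium, and afterwards the ATPase NSF, recruited by SNAP adaptors, takes the spent bundle apart. Hippocampal neurons are known to use Vamp2, Cplx1 and Cplx2 at most synapses, whereas Cplx3 is best known from retinal ribbon synapses. NEDD8 is a small ubiquitin-like protein whose attachment to cullins switches on cullin-RING ubiquitin ligases.

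The complexins gave the clearest contrast, since Cplx2 mRNA fell and Cplx1 mRNA rose, and these paralogs have similar coding sequences. Over the 402 bases of each coding sequence, 79.6% of aligned positions were identical, and the longest identical run was 32 bases. The stretch around that run, coding bases 7 to 96 counted from the A of the start codon, is shown to let the likeness be seen, with the 77 identical bases of 90 in capitals.
Cplx1: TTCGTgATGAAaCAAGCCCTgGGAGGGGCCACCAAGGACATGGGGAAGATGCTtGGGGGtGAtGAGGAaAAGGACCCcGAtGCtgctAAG
Cplx2: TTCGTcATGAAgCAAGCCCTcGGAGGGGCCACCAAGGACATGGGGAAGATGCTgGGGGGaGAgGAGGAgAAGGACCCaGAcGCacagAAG
No window of 50 bases of the canonical Cplx1 transcript occurred in a transcript of another gene, and 210 of 4887 such windows of Cplx2 did, most often in Gm47409. Vamp1 and Vamp2 were identical at 74.1% of aligned positions, with a longest identical run of 18 bases.

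The promoters of 2 genes that rose and 2 that fell are shown, from 250 bases before to 50 bases after the start of the GENCODE M39 canonical transcript, read from GRCm39, the build of the count tables. Windows were taken for the 6 members listed in the RefSeq promoter table at hand, and Snap25 and Vamp2 are not among them. Capitals mark matches to any of 4 motifs on either strand. The GC box was searched as GGGCGG, the E-box as CACGTG and the cAMP response element as TGACGTCA. The core of the antioxidant response element was searched as TGACNNNGC, and no matches overlapped in these windows.
Cplx1 (chr5:108697850-108698149, minus strand): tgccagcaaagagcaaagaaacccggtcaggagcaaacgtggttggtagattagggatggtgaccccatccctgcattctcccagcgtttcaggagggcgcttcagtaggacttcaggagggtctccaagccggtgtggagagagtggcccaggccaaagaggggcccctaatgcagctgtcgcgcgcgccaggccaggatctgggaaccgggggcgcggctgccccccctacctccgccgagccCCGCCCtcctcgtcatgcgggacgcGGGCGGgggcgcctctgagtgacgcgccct
Vamp1 (chr6:125192090-125192389, plus strand): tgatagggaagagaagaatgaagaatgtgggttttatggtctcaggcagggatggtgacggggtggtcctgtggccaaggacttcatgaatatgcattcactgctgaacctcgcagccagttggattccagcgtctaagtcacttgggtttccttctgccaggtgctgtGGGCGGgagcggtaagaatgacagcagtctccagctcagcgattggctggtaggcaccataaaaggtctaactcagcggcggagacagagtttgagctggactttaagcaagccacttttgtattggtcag
Cplx2 (chr13:54518904-54519203, plus strand): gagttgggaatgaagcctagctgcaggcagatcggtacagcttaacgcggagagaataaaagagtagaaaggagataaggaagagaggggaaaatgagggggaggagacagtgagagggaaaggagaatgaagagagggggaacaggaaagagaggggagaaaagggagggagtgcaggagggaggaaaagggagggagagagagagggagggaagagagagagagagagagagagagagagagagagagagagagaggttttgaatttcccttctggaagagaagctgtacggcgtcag
Stx1a (chr5:135052086-135052385, plus strand): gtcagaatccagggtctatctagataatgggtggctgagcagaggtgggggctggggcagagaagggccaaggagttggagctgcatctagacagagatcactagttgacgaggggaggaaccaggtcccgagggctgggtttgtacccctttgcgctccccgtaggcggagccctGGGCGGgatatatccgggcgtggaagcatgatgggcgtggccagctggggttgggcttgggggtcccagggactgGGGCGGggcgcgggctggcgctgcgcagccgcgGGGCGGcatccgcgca
The GC box occurred 2 times in the Cplx1 window, 1 time in the Vamp1 window and 3 times in the Stx1a window, and it was present in 22.5% of the 56319 windows of all genes. Genes on either side of the CRE effect therefore held it. The Cplx1, Vamp1 and Stx1a windows were 66.7%, 51.7% and 66.3% GC, against a median of 48.0% over all windows. The 22.5% is thus not a share among windows of like GC content. The Cplx2 window held none of the 4 motifs and consisted largely of a purine repeat, with 5 CpG dinucleotides against 23 in the Cplx1 window. The RefSeq table, on another build, lists a Cplx2 start within a longer gene model, so that this window may not be the only start of the gene, and these counts hold for the window shown. The E-box occurred 2 times in the Cplx3 window and 1 time in the Nsf window, against 5.35% of all windows. The cAMP response element and the antioxidant core occurred in 1.26% and 11.3% of all windows and in none of the 6 members' windows.

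Nedd8 itself was measured first, as the check of the labels. Its level, in CPM (counts scaled to the library's TMM-adjusted total), lay between 5.92 and 18.0 in the CRE libraries of the main comparison (median 12.1) and between 44.1 and 76.0 in the RFP libraries (median 62.4), so that the groups did not overlap. Total counts ranged from 7430401 to 13345552 in the CRE libraries and from 9833872 to 17112815 in the RFP libraries. Of the 4 libraries that stood apart, CRE 3-3 held 1546796 counts and RFP 3-2 had 24.2% of its counts on the ribosomal gene Rn18s-rs5, and both were outside the main comparison. CRE 1-3 and RFP 2-4 were inside it. In CRE 1-3, CRE 3-3 and RFP 2-4 mitochondrial genes held 0.261%, 1.83% and 3.44% of counts, against 6.997 to 11.1% in the other 20 libraries, and GC-rich genes were high and AT-rich genes low, with Spearman's rho across genes of 0.74, 0.56 and 0.50 between GC content and a gene's log2 ratio to the other libraries. In the other 20 libraries that rho lay between -0.14 and 0.28. Results that rested on these libraries are given with and without them. In bulk RNA such as this, fewer cells of a type and less RNA per cell cannot be told apart.

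Of the 8 members, 7 passed the filter on low counts and entered edgeR's quasi-likelihood test, whose p-values were adjusted after Benjamini and Hochberg over the 14488 genes tested. At an adjusted p under 0.05, 4 were lower (Stx1a, Vamp2, Cplx2 and Nsf), 2 were higher (Vamp1 and Cplx1), and Snap25 was not called. Of all genes tested, 13.8% were lower and 16.4% higher, 30.2% in all. The same 6 members were called over all 23 libraries, where 28.2% of genes tested were called, and with Snap25 as the seventh over the 19 libraries that did not stand apart, where 38.1% were. With total counts in place of TMM, 2949 genes were higher and 1533 lower, against 2374 and 1996 with TMM, and the 6 members kept their direction and their call. The median log2 fold change was -0.49 over the 7 tested members and 0.02 over all tested genes. Summed over the members, the level was 3088.6 to 4113.5 CPM in CRE libraries and 4496.2 to 5241.0 CPM in RFP libraries, without overlap. Where counts were summed by the number before the hyphen in the library name (read here as the culture) and compared 3 against 3 in edgeR, the same 6 members were called in the same directions, with adjusted p from 8.21e-06 for Cplx2 to 0.043 for Cplx1.

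**Figure D1:**
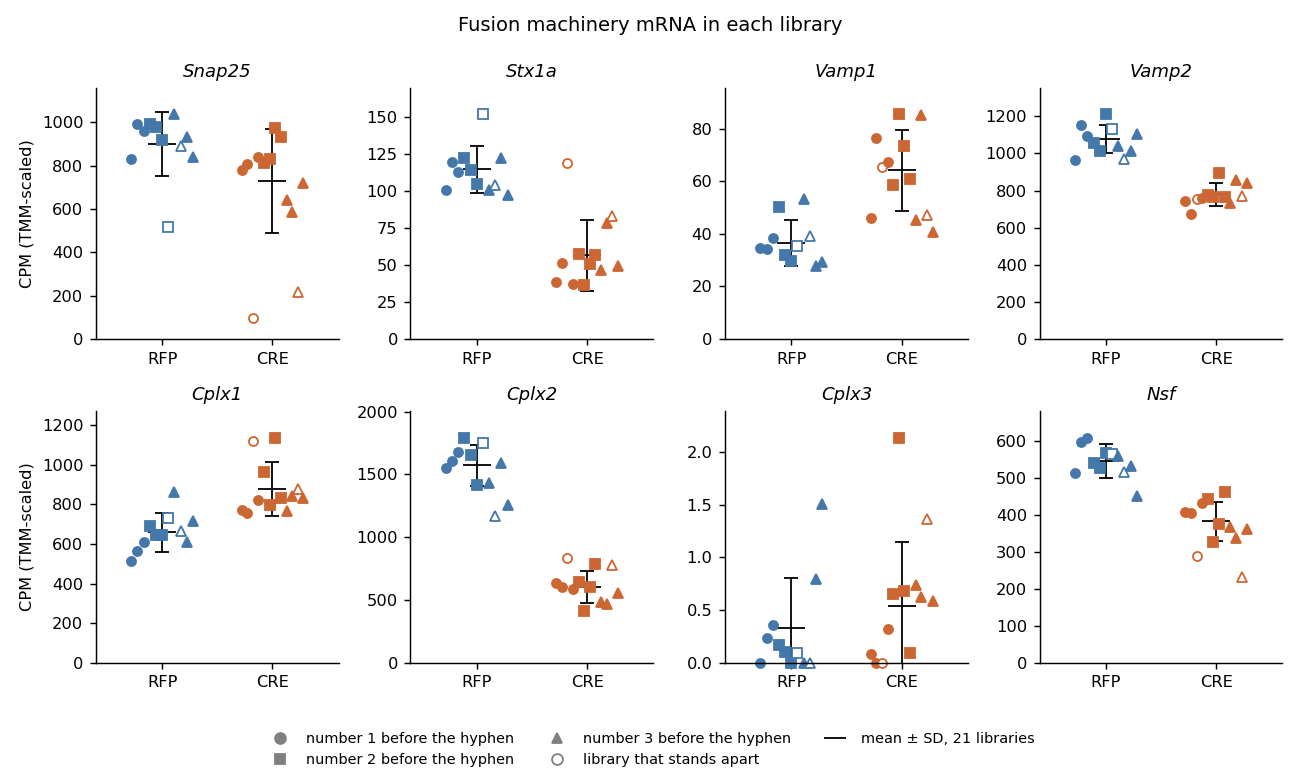
Level of each member in each of the 23 libraries, in TMM-scaled CPM on a linear axis from 0, with RFP in blue and CRE in orange. The marker shape gives the number before the hyphen, open markers are the 4 libraries that stand apart, and bars are the mean and SD of the 21 libraries compared. CRE and RFP markers do not overlap for Cplx2 and Vamp2, and the lowest Snap25 values are open markers.

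Syntaxin-1A and SNAP-25 are the plasma membrane SNAREs, the first anchored by its own transmembrane stretch and the second giving 2 helices to the bundle. Stx1a (ENSMUSG00000007207, GRCm39 chr5:135052139-135079963, plus strand) lay between 97.5 and 151.8 CPM in the RFP libraries, with a median of 113.5, and between 36.3 and 119.2 CPM in the CRE libraries, with a median of 50.9. In 10 of 11 CRE libraries Stx1a was below every RFP library, and the exception was CRE 1-3, at 119.2 CPM. The log2 fold change was -1.04 ± 0.17 (SE; 2.06-fold lower), with an adjusted p of 3.82e-05 in edgeR's quasi-likelihood test. Without the 4 libraries that stood apart the groups no longer overlapped, at no more than 78.6 CPM in CRE and no less than 97.5 in RFP, which held for 4.04% of tested genes in that direction, and the log2 fold change was -1.16 ± 0.11, with an edgeR adjusted p of 5.3e-09. Stx1a is GC-rich (59.0% of its transcript), and its level was high in all 3 libraries in which GC-rich genes were high.

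Snap25 (ENSMUSG00000027273, GRCm39 chr2:136533580-136624362, plus strand) is AT-rich (38.7% GC) and went the other way in those libraries. It lay between 518.3 and 1036.2 CPM in the RFP libraries (median 945.2), the lowest being RFP 2-4 and the next 832.5 CPM. In the CRE libraries it lay between 94.9 CPM, in CRE 1-3, and 976.1 CPM, with a median of 805.4. The groups overlapped over most of their range, and the log2 fold change of -0.32 ± 0.22 did not pass the test (edgeR adjusted p = 0.299). Without the 4 libraries that stood apart, CRE libraries ranged from 584.8 to 976.1 CPM and RFP libraries from 832.5 to 1036.2 CPM, and 7 of 10 CRE libraries were below every RFP library. The log2 fold change then was -0.27 ± 0.08, with an edgeR adjusted p of 0.00893, and with the trend on GC content taken out of each of the 21 libraries it was -0.27 ± 0.08, with an adjusted p of 0.0128. The call on Snap25 thus differed between these fits, for a cause that was not tested. Its log2 fold change ran from -0.55 without the libraries numbered 2 before the hyphen to -0.18 without CRE 1-3 and CRE 3-3, and was -0.39 over all 23 libraries.

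**Figure D2:**
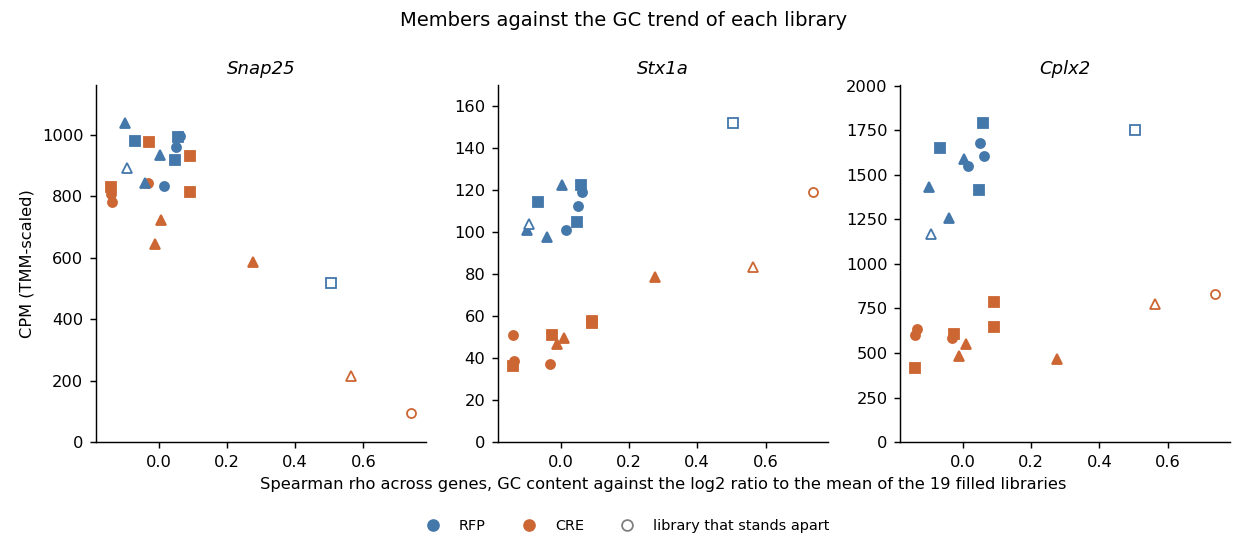
Level of Snap25, Stx1a and Cplx2 (TMM-scaled CPM, linear axis) against the GC trend of each library, given as Spearman's rho across genes between GC content and the gene's log2 ratio to the mean of the 19 libraries that do not stand apart. Open markers are the libraries that stand apart, of which the 3 on the right have rho of 0.50 or more, low Snap25 and high Stx1a for their group, while Cplx2 keeps RFP and CRE apart along the axis.

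The vesicle SNAREs VAMP1 and VAMP2 are near-interchangeable in the bundle, with VAMP1 best known from spinal cord and motor nerve terminals. Vamp2 (ENSMUSG00000020894, GRCm39 chr11:68979316-68983210, plus strand) lay between 965.7 and 1209.5 CPM in RFP libraries (median 1074.6) and between 673.8 and 896.2 CPM in CRE libraries (median 762.7). Every CRE library was below every RFP library, also over all 23 libraries, where 1.43% of tested genes showed this in that direction, and 2.08% over the 21. The log2 fold change of Vamp2 was -0.49 ± 0.08 (1.40-fold lower), with an edgeR adjusted p of 2.98e-05. Vamp2 also had the narrowest spread of the members, with a coefficient of variation of 6.88% among RFP and 8.10% among CRE libraries.

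Vamp1 (ENSMUSG00000030337, GRCm39 chr6:125192340-125222927, plus strand) lay between 27.9 and 53.4 CPM in RFP libraries, with a median of 34.6, and between 40.8 and 85.4 CPM in CRE libraries, with a median of 65.4. The ranges overlapped, and 8 of 11 CRE libraries were above every RFP library. Its log2 fold change was 0.79 ± 0.15 (1.73-fold higher), with an edgeR adjusted p of 0.000241. Set against each other within a library, which needs no scaling between libraries, Vamp1 held 2.39 to 4.89% of the counts of the pair in RFP libraries (median 3.05%) and 4.62 to 10.2% in CRE libraries (median 7.57%). The log2 ratio of Vamp1 to Vamp2 was higher by 1.27 in CRE (2.41-fold), with p = 0.000107 in a two-sided permutation test over libraries, adjusted by Benjamini-Hochberg over the 8 ratios tested. Vamp1 nonetheless remained the minor gene in every library. Vamp2 was also set against Vamp3 (cellubrevin, the form of non-neuronal secretion), which lay between 34.2 and 65.0 CPM in RFP and 22.9 and 62.7 CPM in CRE libraries. The log2 ratio of Vamp2 to Vamp3 differed by -0.41, with an adjusted p of 0.0485 in the same permutation test. Leaving out any 1 of 16 of the 21 libraries put that p above 0.05. It was 0.0872, 0.277 and 0.0825 without the libraries numbered 1, 2 and 3 before the hyphen. Without the 4 libraries that stood apart the ratio differed by -0.46, with an adjusted p of 0.0165 in an exact permutation test.

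Complexin-2 and complexin-1 are the major complexins of forebrain neurons. Cplx2 (ENSMUSG00000025867, GRCm39 chr13:54519154-54531730, plus strand) lay between 1257.6 and 1789.1 CPM in the RFP libraries of the main comparison (median 1596.5) and between 413.8 and 833.0 CPM in the CRE libraries (median 603.3). Even the highest CRE library was below the lowest RFP library, with and without the libraries that stood apart. Of all tested genes, 2.08% showed this over the 21 libraries and 4.04% over the 19 that did not stand apart. The log2 fold change of -1.41 ± 0.11 (2.65-fold lower; edgeR adjusted p = 1e-09) was the largest of the 7 tested members, and over the alternative fits it ran from -1.48 to -1.32.

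Cplx1 (ENSMUSG00000033615, GRCm39 chr5:108666416-108697899, minus strand) lay between 514.4 and 864.9 CPM in RFP libraries, with a median of 645.3, and between 756.6 and 1134.6 CPM in CRE libraries, with a median of 830.2. Only RFP 3-1, at 864.9 CPM, reached into the CRE range, and 3 of 11 CRE libraries were above it. The log2 fold change was 0.39 ± 0.10 (1.31-fold higher), with an edgeR adjusted p of 0.00528. Without the libraries numbered 2 before the hyphen it was 0.38, with an adjusted p of 0.111 on the 13 libraries left.

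Within each library, Cplx1 held 24.9 to 37.6% of the Cplx1 and Cplx2 counts in the RFP group (median 27.9%) and 51.4 to 65.8% in the CRE group (median 59.9%). The groups did not overlap, also over all 23 libraries, and the more abundant transcript of the pair by counts was Cplx2 in every RFP library and Cplx1 in every CRE library. The 10 RFP libraries gave a log2 ratio of Cplx1 to Cplx2 of -1.26 ± 0.29 (SD), and the 11 CRE libraries one of 0.56 ± 0.28 (SD). That difference of 1.82, or 3.53-fold, had an adjusted p of 8e-05 in the two-sided permutation test, whose unadjusted p of 2e-05 is the smallest that 100000 resamples can give. Averaged per number before the hyphen, the difference was 1.83 and the 3 CRE means were all above the 3 RFP means, where an exact permutation test of 3 against 3 cannot give a p below 0.1.

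**Figure D3:**
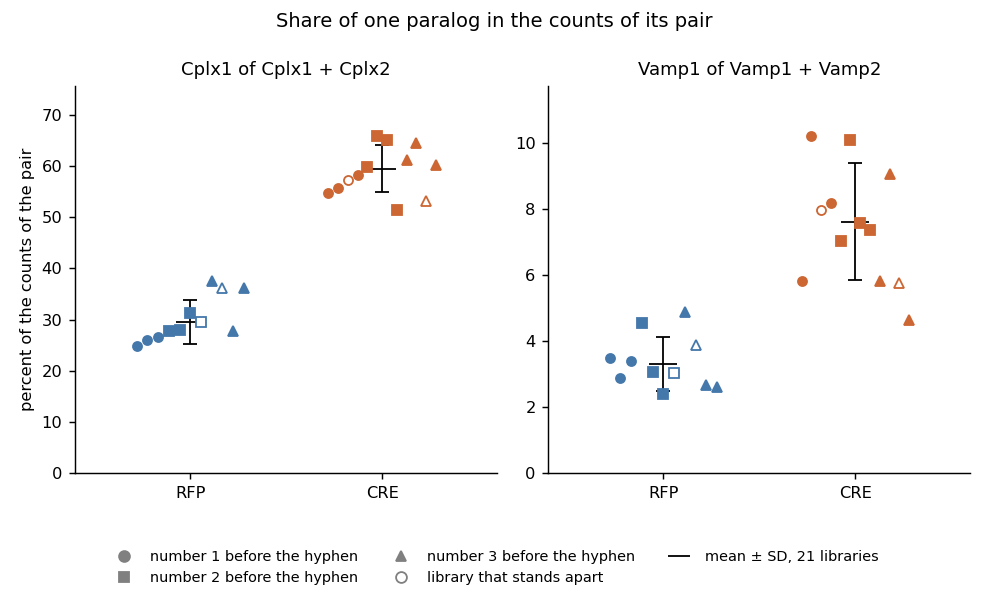
Share of Cplx1 in the counts of Cplx1 and Cplx2, and of Vamp1 in Vamp1 and Vamp2, in percent per library on linear axes from 0, with markers as in the plot of the members by library. RFP and CRE shares are apart for the complexins, at no more than 37.6% and no less than 51.4%, and overlap for the VAMP pair.

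Cplx3 (ENSMUSG00000039714, GRCm39 chr9:57507275-57513575, minus strand) did not pass the filter on low counts. It lay between 0 and 2.13 CPM in CRE and between 0 and 1.51 CPM in RFP libraries, or 0 to 28 and 0 to 15 counts. In 2 of 11 CRE and 3 of 10 RFP libraries there was no count, which at their depth allows up to 0.404 and 0.299 CPM of unscaled totals, and 7 CRE and 3 RFP libraries had more than 3 counts. The most counts were in CRE 2-2 and RFP 3-4, so that both groups held libraries with and without the transcript. With no filter, edgeR gave Cplx3 a log2 fold change of 0.71 ± 0.87 with an adjusted p of 0.595, and no difference was detectable at this depth. The log2 ratio of Cplx3 to Cplx2 was higher by 2.26 in CRE (adjusted p = 0.0269, permutation test). The lower Cplx2 counts in CRE enter this value, and so do few Cplx3 counts, 70 in all CRE and 37 in all RFP libraries. With a pseudocount of 1 in place of 0.5 the difference was 2.12 (adjusted p = 0.0129, permutation test). Without CRE 2-2 or without RFP 2-3 the adjusted p of that test was 0.0505 and 0.0527, at a pseudocount of 0.5. Without the libraries numbered 2 before the hyphen the difference was 1.18, with an adjusted p of 0.364 in the same test. Cplx4, the other retinal complexin, had 0 to 4 counts per library.

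Nsf (ENSMUSG00000034187, GRCm39 chr11:103712592-103844936, minus strand) encodes the ATPase that recycles SNAREs after fusion. It lay between 451.1 and 608.2 CPM in RFP libraries (median 550.5) and between 287.8 and 461.5 CPM in CRE libraries (median 374.9). All CRE libraries but CRE 2-4, at 461.5 CPM, were below every RFP library. The log2 fold change was -0.53 ± 0.09 (1.45-fold lower), with an edgeR adjusted p of 6.47e-05. Its adaptors were measured beside it, and of these Napb, the brain form of SNAP, was lower by a log2 of -0.68 ± 0.18 (edgeR adjusted p = 0.00611) and Napg by -0.27 ± 0.09 (adjusted p = 0.0263), while the widely expressed Napa had 0.17 ± 0.10 (adjusted p = 0.237). Napb held 77.5 to 525.5 CPM in CRE and 539.4 to 768.2 CPM in RFP libraries, without overlap, the lowest being CRE 1-3. Of all tested genes, 2.08% were without overlap in that direction. Within libraries the log2 ratio of Napb to Napa was lower by 0.96 in CRE, with an adjusted p of 8e-05 in the permutation test, and without the 4 libraries that stood apart it differed by -0.74. Of the Napb transcript's windows of 50 bases, 16.3% also lie in another gene, most often Gzf1 on the opposite strand, and the strand setting of the counting is not given, so that Napb counts may hold some reads of Gzf1.

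Set against Snap25, Nsf gave a log2 ratio of -0.70 ± 0.31 (SD) over the 10 RFP libraries and of -0.77 ± 0.81 (SD) over the 11 CRE libraries, with an adjusted p of 0.869 in the permutation test. That ratio rested on single libraries. Without CRE 1-3, where it was 1.60, the difference was -0.31 with an adjusted p of 0.00339, without RFP 2-4 it was 0.02 with an adjusted p of 0.9, and without all 4 libraries that stood apart it was -0.22 with an adjusted p of 0.00658 in an exact permutation test. The ratio of Snap25 to the ubiquitous Snap23 was lower in CRE by 0.54 on the log2 scale (adjusted p = 0.0323, permutation test). Leaving out any 1 of 8 libraries put that p above 0.05. Of the Snap23 transcript's windows of 50 bases, 45.6% lie also in another gene, most often Lrrc57 on the opposite strand.

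**Figure D4:**
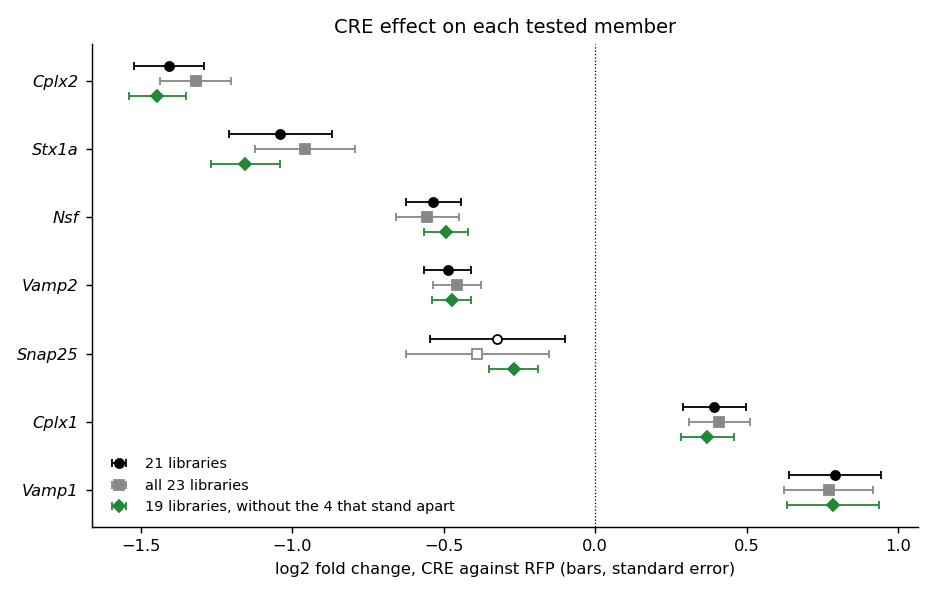
Log2 fold change, CRE against RFP, with its standard error for each of the 7 tested members, in 21 libraries (black), in all 23 (grey) and in the 19 that do not stand apart (green). Filled markers have an adjusted p under 0.05 in edgeR's quasi-likelihood test, and only Snap25 changes between open and filled.

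Compared between genes per length, that is in CPM per kilobase of annotated exon, the RFP libraries ran in mean from Cplx2 (318.7) over Vamp2 (276.7), Cplx1 (180.0), Snap25 (89.9), Nsf (45.5) and Stx1a (35.6) to Vamp1 (3.40) and Cplx3 (0.106). In the CRE libraries the same scale ran from Cplx1 (239.4) over Vamp2 (200.0), Cplx2 (121.8), Snap25 (72.9), Nsf (31.9) and Stx1a (17.6) to Vamp1 (5.97) and Cplx3 (0.174). The complexins thus exchanged places around Vamp2. The order of the leading genes depended on the length used. With the canonical transcript's length Vamp2 led both groups, at 951.4 in RFP and 687.7 in CRE, and in RFP libraries Cplx2 (254.8 to 362.5) and Cplx1 (233.9 to 393.3) overlapped, while in CRE libraries Cplx1 (344.1 to 516.0) stayed above Cplx2 (83.8 to 168.8). The ranges of Cplx2 and Vamp2 in RFP, and of Cplx1 and Vamp2 in CRE, overlapped per kilobase of exon.

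The CRE effect was also taken by the number before the hyphen. The log2 fold changes of Cplx2 were -1.31, -1.45 and -1.52 for numbers 1, 2 and 3, those of Vamp2 -0.58, -0.48 and -0.38, and those of Nsf -0.61, -0.48 and -0.54. For Stx1a they were -0.88, -1.31 and -0.88, for Vamp1 0.80, 0.90 and 0.63, and for Cplx1 0.60, 0.44 and 0.15. Each of these genes kept its direction at each number. Snap25 gave -0.59, 0.04 and -0.53, so that its sign differed at number 2, which holds RFP 2-4. Number 1 holds CRE 1-3, where Snap25 was at 94.95 CPM, against 779.95 to 841.39 CPM in the other CRE libraries of that number. In edgeR's test of the interaction of number and condition, the adjusted p of the 7 members was 0.977 to 0.986, and 1 gene of 14488 was called.

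The partners of the fusion machinery, a list of 23 regulators and relatives, were measured in the same fit. Of the 21 tested, 11 were lower, 1 was higher and 9 did not pass the test in edgeR, with a median log2 fold change of -0.27 against 0.02 over all genes, of which 13.8% were lower and 16.4% higher. Stxbp5l, a tomosyn that competes with VAMP2, was lower by a log2 of -1.41 ± 0.17, from 32.0 ± 7.57 CPM (SD, n = 10) in RFP to 12.2 ± 3.54 CPM (SD, n = 11) in CRE, and the calcium sensor gene Doc2b by -1.03 ± 0.18. Unc13a, encoding the priming factor Munc13-1, had -0.43 ± 0.12 and an adjusted p of 0.00639. Stxbp6, whose product amisyn holds a VAMP-like motif, was the 1 gene that rose, by a log2 of 1.13 ± 0.27 with an adjusted p of 0.00226. Without the libraries numbered 2 before the hyphen 5 of these genes were lower, where 5.45% of all tested genes were, and Unc13a was then not called.

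The remaining SNAREs serve mostly the endoplasmic reticulum, Golgi, endosomes and lysosomes, and some the plasma membrane. Of 29 tested, 3 were lower, 4 were higher and 22 did not pass the test, against 13.8% lower and 16.4% higher of all genes, and the median log2 fold change was 0.00. Snap47 was the clearest of those lower, at 225.8 ± 16.6 CPM (SD, n = 11) in CRE and 369.8 ± 32.8 CPM (SD, n = 10) in RFP, a log2 fold change of -0.73 ± 0.08 with an edgeR adjusted p of 1.37e-07. Sec22c and Ykt6, listed here as genes of the early secretory route, had -0.28 ± 0.10 and -0.26 ± 0.10 (edgeR adjusted p = 0.0357 and 0.0423). Leaving out any 1 of 5 and of 6 RFP libraries put these p-values above 0.05. Vamp8, a SNARE of late endosomes and lysosomes, rose by a log2 of 2.43 ± 0.41 from 0.74 ± 0.59 CPM to 4.07 ± 1.35 CPM, so that the largest change of all SNAREs was that of a gene at the edge of detection. Stx5a of the Golgi and Use1 of the endoplasmic reticulum rose by 0.82 ± 0.15 and 0.79 ± 0.16. Stx4a, the plasma membrane syntaxin of non-neuronal secretion, rose by 1.26 ± 0.15, and its annotation overlaps another gene by 124 bases on the opposite strand.

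**Figure D5:**
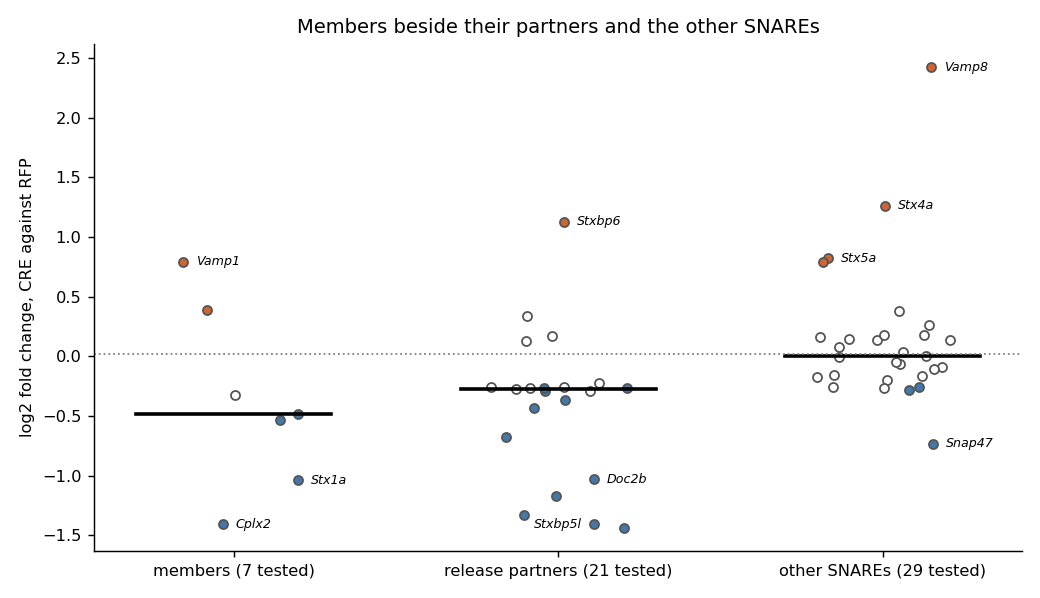
Log2 fold change, CRE against RFP, of each tested member, release partner and other SNARE, with called genes filled (blue lower, orange higher), the median of each list as a black bar and that of all tested genes as a dotted line. The bars of the members and of the release partners lie below the dotted line, at -0.49 and -0.27, and that of the other SNAREs close to it, at 0.00.

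The dish held more than one cell class, and markers of these classes were counted in the same fit, in which 13.8% of all genes were lower and 16.4% higher. Of 9 markers of glutamatergic neurons 6 were lower and 1 was higher, and their summed level was 1056.6 to 1986.7 CPM in CRE and 2680.8 to 5116.8 CPM in RFP libraries. Of 10 general neuron markers 5 were lower and 1 was higher, with sums of 2847.5 to 4527.3 CPM in CRE and 4546.5 to 5448.5 CPM in RFP, and of 14 markers of GABA neurons 3 were lower and 4 higher, with sums of 1625.1 to 3129.6 and 2290.8 to 3937.5 CPM. Astrocyte markers (4 of 9 lower, 2 higher) summed to 1640.0 to 5275.6 CPM in CRE and 3692.7 to 7938.6 CPM in RFP, and oligodendrocyte lineage markers (6 of 9 lower) to 447.2 to 1980.0 and 678.2 to 1968.3 CPM. Microglial markers stayed at or below 8.1 CPM in sum in each library, and 7 of 9 did not pass the filter. Of the 2 tested, Tmem119 was higher by a log2 of 3.21 ± 0.66 (edgeR adjusted p = 0.000517). The other, Csf1r, had -1.02 ± 0.61 and was not called (edgeR adjusted p = 0.223). Markers of endothelial and mesenchymal cells (1 of 7 tested lower, 1 higher) summed to 16.5 to 386.5 and 17.6 to 145.4 CPM. No list had a marker at 0 in every library. By the sums given above, transcripts of the neuron markers were present in both groups. The part of these shifts in the changes of the members was not tested.

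Profiles over the 21 libraries were compared last, each as log2 CPM centred on the gene's own mean. These profiles contain the difference between CRE and RFP, so that genes near a member were picked in part for a like fold change. Among the closest to Vamp2 was Ap2b1, with a root mean square difference of 0.12 against a root mean square of 0.26 for Vamp2 itself. Closest to Cplx2 were Bhlhe22 (0.20) and Shisal1 (0.21), against 0.74 for Cplx2 itself, and both were lower in CRE, by log2 fold changes of -1.27 and -1.40. Nsf was nearest to Fkbp1a (0.11) and Atrn (0.13), against 0.31 for Nsf itself, and Stx1a to Ctxn1 and Septin5 (both 0.23), against 0.66. Cplx1 was nearest to Cacng7 and Ncoa3 (both 0.13), against 0.29, and Vamp1 to Spring1 (0.21) and Kctd7 (0.26), against 0.52. Snap25 was nearest to Capza2 (0.14) and Stau2 (0.15), against 0.71 for Snap25 itself. That profile includes CRE 1-3, where Snap25 was at 94.95 CPM, and the part of this library in the nearness was not tested.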

How the data were processed

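RNA was measured in 23 libraries of primary hippocampal neurons, which the authors prepared with the Illumina Stranded mRNA Prep kit. Per the labels, the tools were bcl2fastq 2.20.0.422, STAR 2.7.8a and featureCounts 1.5.0-p1 on GRCm39; the strand setting and the handling of reads with several matches are not given in the sources used here. The authors deposited whole-number counts per gene for each library, without normalization. Gene names came from GENCODE M39, which named 56323 of the 56941 genes.

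From these counts, edgeR 4.0.16 (R 4.3.3; filterByExpr, TMM, robust quasi-likelihood fit, Benjamini-Hochberg over all genes tested) compared 11 CRE with 10 RFP libraries, all but CRE 3-3 and RFP 3-2, as in the study's table; its methods text names CRE 1-3 and CRE 3-3 as removed, which was an alternative. CPM used TMM factors over all 23 libraries. Ratios of 2 genes used counts plus 0.5 in each library and permutation tests with 100000 resamples (scipy 1.17.1). These were exact where the libraries allow no more than 100000 arrangements. Total counts of 7430401 to 17112815 per library leave counting error small beside the spread between libraries for every member but Cplx3. Coding sequences and promoters were read from GRCm39 and aligned in Python 3.11.15. The test was tested on simulated data.

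The comparison reported had no block. Alternatives were DESeq2 1.42.0, other scalings, no filter, blocks, sums per number, a GC trend taken out, and sets of libraries; leaving out each library was added after seeing the data. Named genes were the members, Nedd8, the ratio partners, Unc13a, Cplx4, up to 4 called genes per direction of each list by smallest p, and the 2 closest profiles per member. Members and lists were chosen with earlier results of these data known. Some genes that this rule names, and 1 of the 8 ratios, are not reported here.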

Additional observations from a re-analysis of the deposited data

Results flagged for a closer look

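Among the 10 RFP libraries, 5 values lay far from the rest, by Dixon's gap test at 95%, which flags about 1 in 20 groups by chance. RFP 2-4, 1 of the libraries with a GC trend, gave 4 of them. Its Snap25 level was 518.27 CPM, against 832.5 to 1036.23 CPM in the other 9, and its Stx1a level was 151.8 CPM, against 97.46 to 122.48 CPM. Its log2 ratio of Snap25 to Snap23 was 7.6, against 5.87 to 6.71, and its log2 ratio of Nsf to Snap25 was 0.12, against -0.9 to -0.66. The remaining value was Cplx3 in RFP 3-4, at 1.51 CPM against 0 to 0.79 CPM, which rested on 15 counts. The part of the GC trend in the values of RFP 2-4 was not tested in that library alone. Groups of more than 10 libraries, such as CRE, were not examined in this way.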

How the results depend on the processing

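Of the 7 tested members, Stx1a, Vamp1, Vamp2, Cplx2 and Nsf kept their direction and call under every alternative run. Here too the number before the hyphen is read as the culture, which the labels do not state. Cplx1 lost its call only without culture number 2, over a range of 0.319 to 0.477 as each culture or library was left out. Snap25 ran from -0.548 (without culture 2) to -0.182 (without the libraries of the methods text) and gained a call without the 4 libraries that stood apart (-0.269) and with the GC trend removed (-0.268). With culture number as a replicate block, the log2 fold change of Cplx2 was -1.42 and no member changed its call. The deviations of same-numbered CRE and RFP groups from their group means correlated by 0.0373, 0.0408 and 0.133 over 14488 genes. Between groups of different numbers the correlation ran from -0.191 to 0.15. With 3 means per condition, these values cannot tell whether same-numbered groups shared a culture.

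Of all tested genes called, the number was 4370 in the comparison reported, 6920 without a filter (4367 higher and 2553 lower), and 2114 (without culture 2) to 5507 (without CRE 1-3) as each culture or library was left out. Release partners called lower then numbered 5 (without culture 2) to 14 (without CRE 1-3) and those called higher 1 to 2, members called higher 1 to 2, and other SNAREs called lower 1 to 4, with 1 without RFP 1-1, RFP 2-2 or RFP 2-4. Other SNAREs called lower were also 1 with total counts, with no filter and with sums per culture, with or without the block. Release partners called higher were 2 with total counts, without the 4 libraries, with culture as a block and with the GC trend removed. The fold change of Vamp3, not called in any fit, turned to 0.07 without the libraries of the methods text, to 0.042 with total counts and to 0.046 with the GC trend removed, and ran from -0.121 to 0.029 as each library was left out.

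Averaged per culture, 3 against 3, the log2 ratio differed by 1.247 for Vamp1/Vamp2, 1.829 for Cplx1/Cplx2, 2.274 for Cplx3/Cplx2, -0.557 for Snap25/Snap23, -0.39 for Vamp2/Vamp3 and -0.934 for Napb/Napa, none of which can pass 0.05 at that size. Over all 23 libraries Snap25/Snap23 (-0.388) and Vamp2/Vamp3 (-0.379) lost their call and Nsf/Snap25 was 0.011, while Nsf/Snap25 was called without the libraries of the methods text (-0.3) and without the 4 that stood apart (-0.216). As each culture or library was left out, Cplx3/Cplx2 ran from 1.182 to 3.26, and was not called without culture 2, CRE 2-2 or RFP 2-3. Over the same fits Snap25/Snap23 ran from -0.622 to -0.411, Vamp2/Vamp3 from -0.507 to -0.347 and Nsf/Snap25 from -0.325 to 0.228. Vamp2/Vamp3 lost its call without CRE 1-1, 1-2, 1-4, 2-1, 2-2, 2-3, 2-4 or 3-1 or RFP 1-2, 1-3, 2-1, 2-3, 2-4, 3-1, 3-3 or 3-4, and Snap25/Snap23 without CRE 1-2, 2-2 or 3-1 or RFP 1-2, 1-3, 2-3, 2-4 or 3-3. Vamp2/Vamp3 also lost its call without culture 1, 2 or 3, and Snap25/Snap23 without culture 1 or 3. The cause of these changes was not tested. Depth was most limiting for Cplx3 and Cplx4.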
